A study of Ovis aries with 15 samples.

Results

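The transcription factor NRF2, its inhibitor KEAP1 and 7 genes that NRF2 is known to act on directly were followed through the kidneys of sheep fed aflatoxin B1 (AFB1), with or without curcumin (CUR). The 9 genes were chosen by symbol. All 9 were found among the 25592 genes measured, and 8 of them were abundant enough to test. The animals were male Dorper × Small-tailed Han crossbred sheep, 4 months old, fed for 21 d. The CON group received the basal diet, the AFB1 group was given AFB1 in it at 500 µg/kg dry matter, and the AFB1_CUR group had both that AFB1 dose and CUR at 800 mg/kg dry matter. Each group has 5 RNA libraries labelled as kidney, 1 of which, in the AFB1 group, went against that label. No group received CUR alone, so CUR was compared only in the presence of AFB1. Nothing in the sources used here ties a library to a pen, and the sheep were housed in pairs, so p values measure the spread between these libraries.

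NRF2, the protein of the gene NFE2L2, is a transcription factor that binds antioxidant response elements together with a small MAF protein. In unstressed cells KEAP1 holds it and passes it to a CUL3 ubiquitin ligase for degradation. Oxidants and electrophiles modify KEAP1, NRF2 then accumulates, and its targets for glutathione synthesis, thioredoxin reduction, quinone reduction and heme breakdown are transcribed. Most of this control acts on the NRF2 protein, which mRNA levels do not measure. In the kidney, the proximal tubule has a high oxygen use and a high demand for glutathione.

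Total counts ranged from 50255295 to 68747047 per library. The library labelled AFB1 replicate 1 is the one that went against its tissue label. Its mean log2(FPKM + 1) over 15 hepatocyte genes was 10.48, against 1.25 to 2.71 in the other 14 libraries, and over 9 genes of the proximal tubule it was 1.29, where the others had 6.55 to 8.09. Over 9 genes of the loop, distal tubule and collecting duct it was 0.57, against 6.44 to 7.31. It was therefore kept out of the groups and its values are given apart, so that the AFB1 group has 4 libraries, and for the 8 tested genes the estimates from all 15 libraries are given beside those from 14. Among these 14 libraries, AFB1 replicate 2 and AFB1_CUR replicate 2 had the highest macrophage scores (4.30 and 4.38, against 2.19 to 3.47 in the other 12) and the highest T cell scores (3.93 and 4.26, against 1.56 to 2.96). In bulk tissue, fewer cells of a type and less RNA per cell cannot be told apart.

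Levels were compared between genes in FPKM, which divides the fragments of a gene by its length and by the size of the library. In every group the means stood in the same order: HMOX1 was the highest, then NFE2L2, GCLC, TXNRD1, KEAP1, SRXN1, GCLM and NQO1, with SLC7A11 far below. The ranges of several neighbours in this order overlapped. Those of HMOX1 and NFE2L2 overlapped in all 3 groups. Within libraries, however, HMOX1 was the higher in 4 of 5 CON, 4 of 4 AFB1 and 5 of 5 AFB1_CUR libraries. The ranges of NFE2L2 and GCLC also overlapped in all 3 groups, with NFE2L2 the higher in 3 of 5, 3 of 4 and 3 of 5 libraries. GCLC and TXNRD1 were apart in all 3 groups. KEAP1 and SRXN1 were apart in CON only, and in AFB1 their mean levels were 16.6 and 16.5 FPKM. The mean level over the 14 libraries put HMOX1 above 96.0% of the 13162 genes tested, NFE2L2 above 94.1% and GCLC above 92.7%, whereas NQO1, which encodes a quinone reductase, was above 54.9%.

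NFE2L2 lies on chromosome 2 from 132853236 to 132885813 on the plus strand (positions as in the deposited table, which match the sheep assembly ARS-UI_Ramb_v3.0). Its level in the CON libraries was 46.3, 61.5, 60.3, 62.5 and 49.4 FPKM. In the AFB1 group it was 69.7, 70.7, 80.1 and 63.2 FPKM. In the AFB1_CUR group it was 58.5, 80.7, 78.3, 55.5 and 63.0 FPKM. In FPKM, each of the 4 AFB1 libraries therefore stood above each CON library. The lowest AFB1 value was, however, within 1 FPKM of the highest CON value. The AFB1_CUR libraries reached from within the CON range to the top of the AFB1 range. Such a separation in FPKM, with AFB1 higher, was found in 0.517% of the genes tested. For NFE2L2 it was lost on counts divided by the library total. AFB1 replicate 5 had 10597 of 60725730 counts, a lower share than the 8815 of 50255295 in CON replicate 4. The mean level was 56.0 ± 7.58 FPKM in CON (SD, n = 5), 70.9 ± 6.94 in AFB1 (SD, n = 4) and 67.2 ± 11.6 in AFB1_CUR (SD, n = 5). AFB1 replicate 1 had 24.0 FPKM, the lowest of all 15 libraries. Between AFB1 and CON the log2 fold change of NFE2L2 was 0.34 (standard error 0.13), with an unadjusted p of 0.0193 and an adjusted p of 0.957 from edgeR (quasi-likelihood, Benjamini-Hochberg over all tested genes). The fold of 1.27 was under the 1.5 that a call required. With all 15 libraries the estimate was 0.21 (standard error 0.17). Against AFB1, the AFB1_CUR group differed by -0.15 (standard error 0.13), and against CON by 0.19 (standard error 0.12), where all 15 libraries gave -0.01 and 0.19. Leaving out single libraries moved the first from -0.22 without AFB1_CUR replicate 3 to -0.08 without AFB1 replicate 4, and the second from 0.12 without AFB1_CUR replicate 3 to 0.25 without CON replicate 4.

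KEAP1, on chromosome 5 from 12860985 to 12870878 on the minus strand, encodes the adaptor that senses electrophiles and marks NRF2 for degradation. Its level was 16.0, 17.2, 16.5, 16.5 and 18.4 FPKM in the CON libraries. The AFB1 libraries had 17.1, 16.3, 16.2 and 16.7 FPKM, and the AFB1_CUR libraries 16.1, 16.8, 16.6, 15.8 and 18.0 FPKM. All 14 values lay between 15.8 and 18.4, and the ranges of the 3 groups overlapped, with 1 of 5 AFB1_CUR libraries below the lowest CON value. The coefficient of variation over these libraries was 4.38%, and 3 of the 13162 genes tested had a lower one, where the median gene had 20.3%. On library-scaled (TMM) counts it was 6.53%, and 155 genes had a lower one. The group means were 16.9 ± 0.94 FPKM in CON (SD, n = 5), 16.6 ± 0.40 in AFB1 (SD, n = 4) and 16.7 ± 0.82 in AFB1_CUR (SD, n = 5). AFB1 replicate 1, at 19.7 FPKM, was the highest of all 15 libraries, which turned the sign of the estimate. The log2 fold change of KEAP1 between AFB1 and CON was -0.03 (standard error 0.08) without that library and 0.22 (standard error 0.17) with it. For AFB1_CUR against AFB1 the estimates were -0.06 (standard error 0.08) without it and -0.30 (standard error 0.17) with it, and for AFB1_CUR against CON they were -0.09 (standard error 0.08) and -0.09 (standard error 0.17). Among the 14 libraries, AFB1_CUR against AFB1 ran from -0.088 without AFB1 replicate 3 to -0.011 without AFB1 replicate 5. AFB1_CUR against CON ran from -0.114 to -0.049 when single libraries were left out. The adjusted p of the AFB1 against CON and AFB1_CUR against AFB1 estimates was 0.978 and 1.0 in the 14 libraries, and 0.735 and 0.785 in the 15, from edgeR's quasi-likelihood test.

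**Figure D1:**
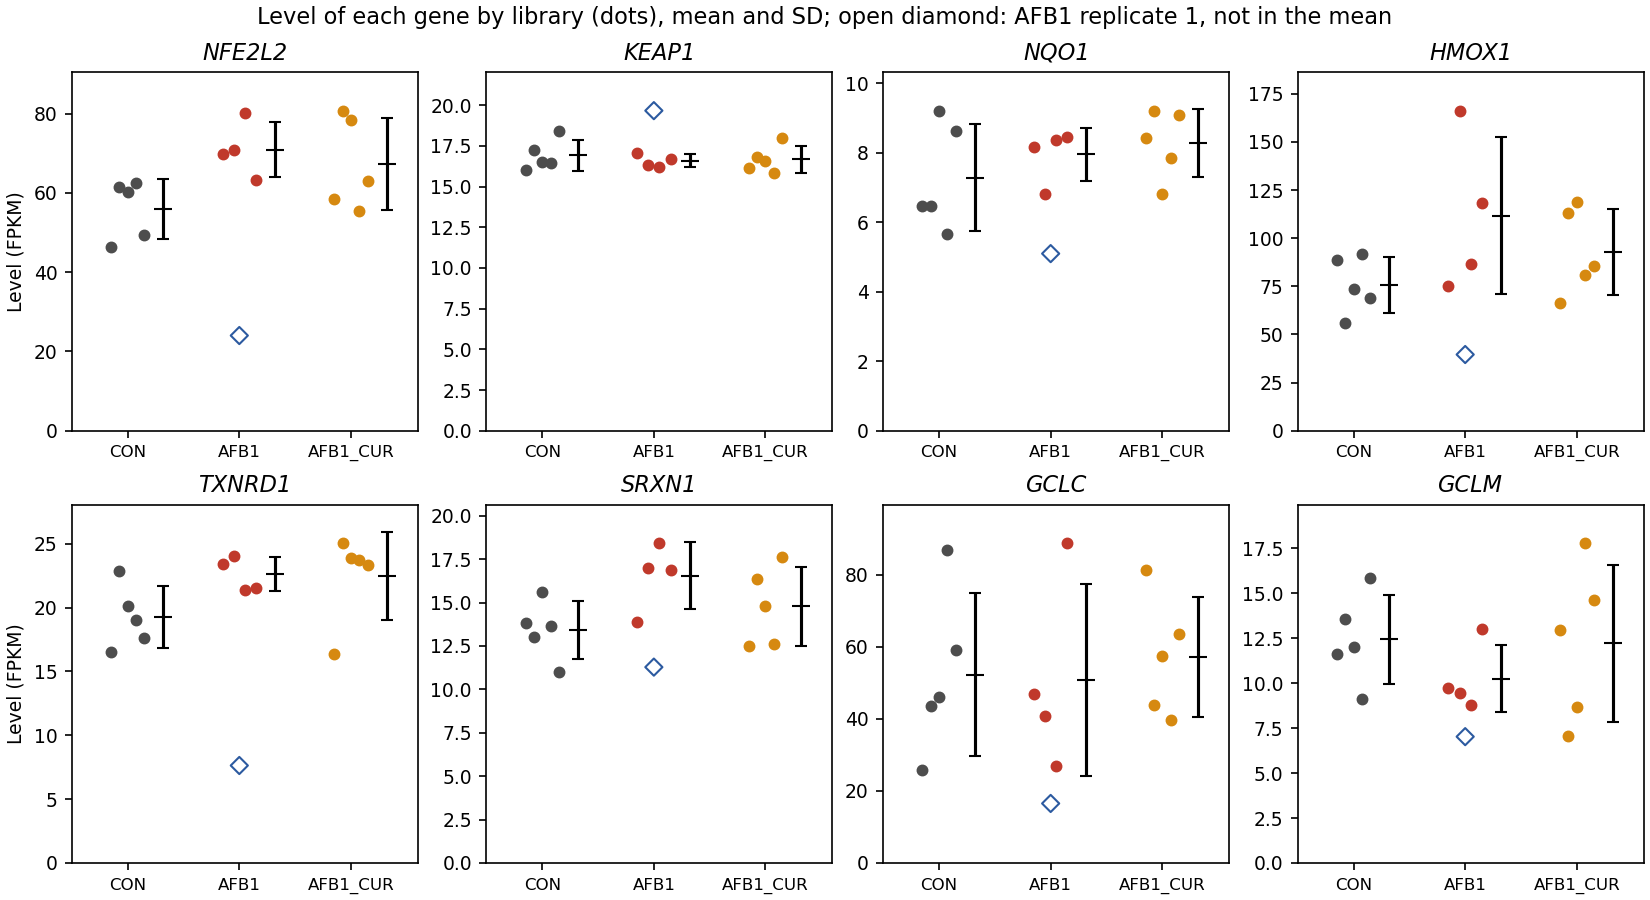
Level of each of the 8 tested genes in FPKM (vertical axis, starting at 0, a separate scale for each gene) for the CON, AFB1 and AFB1_CUR groups, with 1 dot for each of 14 libraries, the mean as a dash and the SD as a bar. The open diamond is AFB1 replicate 1, the liver-like library, which was the lowest of all 15 for NFE2L2 (24.0 FPKM) and the highest for KEAP1 (19.7 FPKM).

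The ratio of NFE2L2 to KEAP1 in FPKM followed NFE2L2, since KEAP1 hardly varied. It was 2.89, 3.57, 3.66, 3.80 and 2.68 in the CON libraries, 4.08, 4.33, 4.94 and 3.78 in the AFB1 libraries and 3.63, 4.80, 4.72, 3.51 and 3.51 in the AFB1_CUR libraries. AFB1 replicate 5, at 3.78, fell just inside the CON range, so the AFB1 and CON groups overlapped by this measure. The mean ratio was 3.32 ± 0.50 in CON (SD, n = 5), 4.28 ± 0.49 in AFB1 (SD, n = 4) and 4.03 ± 0.66 in AFB1_CUR (SD, n = 5). In AFB1 replicate 1 the ratio was 1.22.

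**Figure D2:**
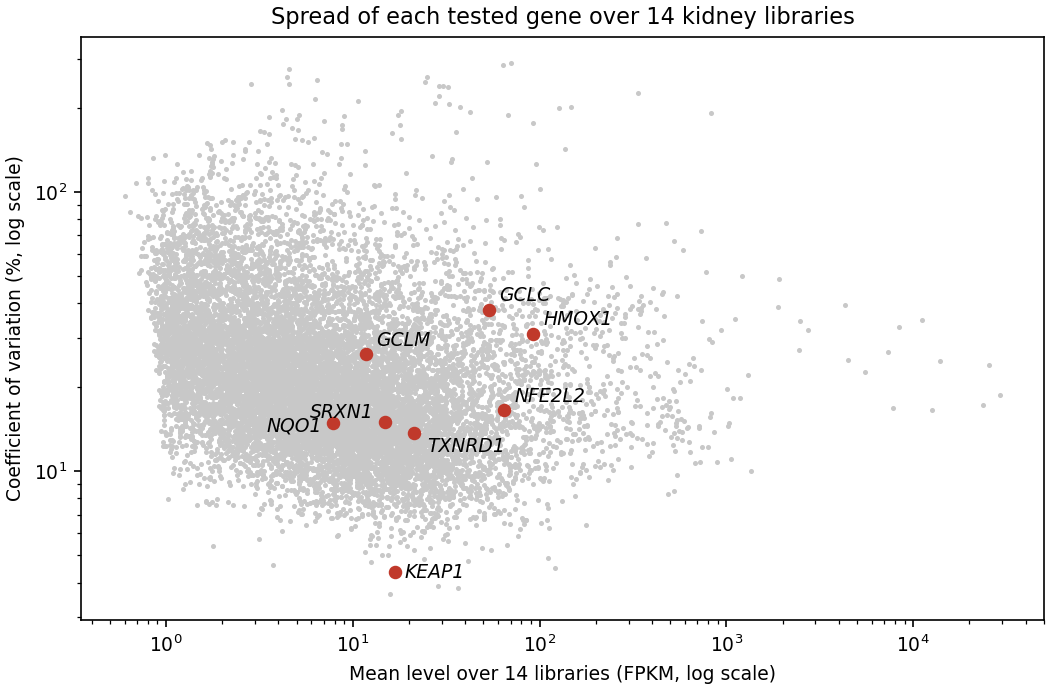
Coefficient of variation in percent (vertical, log scale) against the mean level in FPKM (horizontal, log scale) over 14 libraries, with 1 grey point for each of 13162 genes tested and red points for the 8 genes described. KEAP1, at 4.38%, lies at the lower edge of the cloud and GCLC, at 38.0%, in its upper part.

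Among the targets, HMOX1 had the largest estimate. It lies on chromosome 3 from 179234919 to 179243214 on the plus strand and encodes heme oxygenase 1, which breaks heme down to biliverdin, iron and carbon monoxide. Its level was 88.5, 55.9, 73.5, 91.8 and 69.0 FPKM in the CON libraries, 75.2, 166, 86.9 and 118 in the AFB1 libraries and 66.3, 113, 119, 80.9 and 85.8 in the AFB1_CUR libraries. AFB1 replicates 3 and 5 stood above every CON library, AFB1 replicates 2 and 4 lay within the CON range, and 2 of 5 AFB1_CUR libraries stood above it. The mean level was 75.7 ± 14.7 FPKM in CON (SD, n = 5), 112 ± 40.7 in AFB1 (SD, n = 4) and 93.0 ± 22.2 in AFB1_CUR (SD, n = 5), with 39.6 in AFB1 replicate 1. Between AFB1 and CON the log2 fold change was 0.55 (standard error 0.24, a fold of 1.47), with an unadjusted p of 0.0391 and an adjusted p of 0.957 from edgeR. This is just under the fold of 1.5, and HMOX1 passed both thresholds in 5 of 23 alternative settings, which were sample quality weights (0.62) and leaving out CON replicate 1 (0.62), CON replicate 4 (0.65), AFB1 replicate 2 (0.72) or AFB1 replicate 4 (0.65). Without AFB1 replicate 3, its highest library, the estimate was 0.33. The estimate from all 15 was 0.43 (standard error 0.26). The AFB1_CUR group differed from AFB1 by -0.35 (standard error 0.24) and from CON by 0.21 (standard error 0.23), or by -0.22 and 0.21 over all 15 libraries. The first ran from -0.52 without AFB1 replicate 2 to -0.12 without AFB1 replicate 3, and the second from 0.096 without CON replicate 2 to 0.30 without CON replicate 4.

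TXNRD1 and SRXN1 serve the thioredoxin and peroxiredoxin system. TXNRD1, the cytosolic thioredoxin reductase, lies on chromosome 3 from 173515148 to 173577637 on the plus strand. It had 16.6, 22.8, 20.1, 19.0 and 17.7 FPKM in the CON libraries, 23.4, 24.1, 21.4 and 21.5 in the AFB1 libraries and 16.4, 25.1, 23.9, 23.7 and 23.3 in the AFB1_CUR libraries. In FPKM, all AFB1 libraries were above the CON median and 2 of 4 were above the highest CON value. Of the AFB1_CUR libraries, 4 of 5 were above that value, while AFB1_CUR replicate 1 was below the lowest CON value. The TMM factors of the fit were 1.06 for CON replicate 2 and 0.964 and 0.889 for AFB1 replicates 4 and 5. The order of these libraries can therefore differ on that scale. Mean levels were 19.2 ± 2.42 FPKM in CON (SD, n = 5), 22.6 ± 1.33 in AFB1 (SD, n = 4) and 22.5 ± 3.46 in AFB1_CUR (SD, n = 5), and AFB1 replicate 1 had 7.63. The estimate between AFB1 and CON was 0.23 on the log2 scale (standard error 0.11), with an unadjusted p of 0.0532 and an adjusted p of 0.957 from edgeR, and 0.10 (standard error 0.16) with all 15 libraries. For AFB1_CUR it was 0.15 against CON (standard error 0.10) and -0.08 against AFB1 (standard error 0.11), which became 0.16 and 0.06 with all 15 libraries.

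SRXN1, sulfiredoxin, returns overoxidised peroxiredoxins to their active form, and its gene lies on chromosome 13 from 60067743 to 60074684 on the plus strand. The CON libraries had 13.8, 13.0, 15.6, 13.6 and 11.01 FPKM. The AFB1 libraries had 13.9, 17.0, 18.4 and 16.9 FPKM, and the AFB1_CUR libraries 12.5, 16.3, 14.8, 12.6 and 17.6 FPKM. Here 3 of 4 AFB1 libraries were above every CON library and the fourth, AFB1 replicate 2, was within the CON range. The mean level was 13.4 ± 1.65 FPKM in CON (SD, n = 5), 16.5 ± 1.92 in AFB1 (SD, n = 4) and 14.8 ± 2.26 in AFB1_CUR (SD, n = 5). AFB1 replicate 1, at 11.3 FPKM, was low but above CON replicate 5. A log2 fold change of 0.31 (standard error 0.14) separated AFB1 from CON, with an unadjusted p of 0.0402 and an adjusted p of 0.957 from edgeR. The same estimate was 0.34 (standard error 0.13) with all 15 libraries. AFB1_CUR differed by -0.25 from AFB1 (standard error 0.14, adjusted p = 1.0 from edgeR), with an unadjusted p of 0.0905, and by 0.06 from CON (standard error 0.13), or by -0.27 and 0.07 over all 15 libraries.

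NQO1, on chromosome 14 from 36338391 to 36351574 on the minus strand, is a common readout of NRF2 and reduces quinones with NAD(P)H. It was at 6.46, 6.46, 9.19, 5.66 and 8.63 FPKM in the CON libraries, 8.17, 6.82, 8.37 and 8.46 in the AFB1 libraries and 8.43, 9.21, 6.82, 7.84 and 9.09 in the AFB1_CUR libraries. The groups overlapped, although each AFB1 and AFB1_CUR library was above the CON median of 6.46. Its mean was 7.28 ± 1.54 FPKM in CON (SD, n = 5), 7.96 ± 0.77 in AFB1 (SD, n = 4) and 8.28 ± 0.99 in AFB1_CUR (SD, n = 5), and AFB1 replicate 1 had 5.10. Estimates on the log2 scale were 0.13 for AFB1 against CON (standard error 0.16), -0.02 for AFB1_CUR against AFB1 (standard error 0.16) and 0.11 for AFB1_CUR against CON (standard error 0.15). Over all 15 libraries they were 0.14, -0.03 and 0.12. The estimate for AFB1 against CON ran from 0.05 without AFB1 replicate 5 to 0.23 without CON replicate 3, and that for AFB1_CUR against CON from 0.04 without CON replicate 4 to 0.21 without CON replicate 3.

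GCLC and GCLM encode the catalytic and the modifier subunit of glutamate-cysteine ligase, the rate-limiting enzyme of glutathione synthesis. GCLC lies on chromosome 20 from 7157378 to 7202454 on the plus strand. It had 25.9, 43.7, 46.0, 86.8 and 59.2 FPKM in the CON libraries, 47.0, 40.8, 26.9 and 88.9 in the AFB1 libraries and 81.3, 43.9, 57.4, 39.8 and 63.7 in the AFB1_CUR libraries. Within CON and within AFB1 the highest library had over 3 times the lowest, and the AFB1_CUR libraries lay within the range of either group. GCLC had a coefficient of variation of 38.0% over the 14 libraries, the largest of the 8 genes and above that of 83.0% of the genes tested. Mean levels were 52.3 ± 22.6 FPKM in CON (SD, n = 5), 50.9 ± 26.7 in AFB1 (SD, n = 4) and 57.2 ± 16.6 in AFB1_CUR (SD, n = 5), with 16.5 in AFB1 replicate 1. The estimates were -0.02 for AFB1 against CON (standard error 0.39), 0.08 for AFB1_CUR against AFB1 (standard error 0.39) and 0.06 for AFB1_CUR against CON (standard error 0.37). These errors were the largest of the 8 genes, and the signs turned when single libraries were left out. Adding AFB1 replicate 1 made these -0.17, 0.23 and 0.07.

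GCLM, on chromosome 1 from 71044474 to 71065678 on the minus strand, had 11.6, 13.6, 11.98, 9.14 and 15.8 FPKM in the CON libraries, 9.74, 9.46, 8.81 and 13.0 in the AFB1 libraries and 12.9, 7.09, 8.68, 17.8 and 14.6 in the AFB1_CUR libraries. In AFB1, 3 of 4 libraries were below the CON median, and the AFB1_CUR libraries spread from below to above the CON range. The mean was 12.4 ± 2.47 FPKM in CON (SD, n = 5), 10.3 ± 1.87 in AFB1 (SD, n = 4) and 12.2 ± 4.37 in AFB1_CUR (SD, n = 5), and AFB1 replicate 1 had 7.03. On the log2 scale AFB1 differed from CON by -0.26 (standard error 0.27), AFB1_CUR from AFB1 by 0.19 (standard error 0.27) and AFB1_CUR from CON by -0.07 (standard error 0.25), and with all 15 libraries these were -0.23, 0.17 and -0.07. The first ran from -0.46 without AFB1 replicate 5 to -0.16 without CON replicate 5, and the other two changed sign in single-library omissions. The ratio of the catalytic to the modifier subunit in FPKM ran from 2.23 to 9.50 in CON, from 3.05 to 6.84 in AFB1 and from 2.24 to 6.61 in AFB1_CUR, so it varied more within groups than between their means of 4.51, 4.76 and 5.14.

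SLC7A11, the cystine transporter subunit of the xCT exchanger, was close to absent from these libraries. Its gene lies on chromosome 17 from 19472137 to 19865395 on the plus strand. Its counts were 0, 26, 25, 9 and 2 in the CON libraries, 33, 19, 9 and 0 in the AFB1 libraries, 9, 257, 7, 8 and 19 in the AFB1_CUR libraries and 8 in AFB1 replicate 1. All but AFB1_CUR replicate 2 had 33 or fewer. The FPKM was at most 0.0922, below the minimum of 1, so the gene was not tested. The length implied by its counts and FPKM was about 50585 bases, against 1686 to 5413 for the other 8 genes. How far its FPKM can be set beside theirs was not tested.

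**Figure D3:**
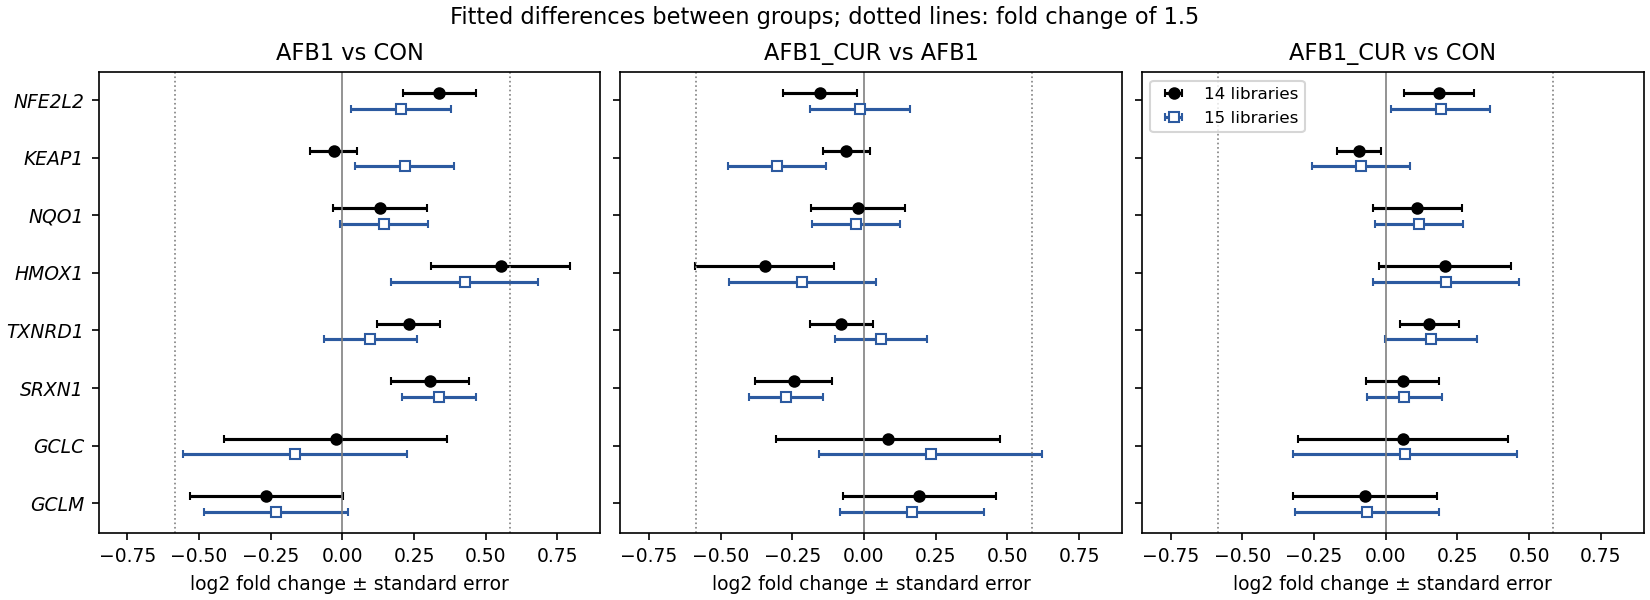
Log2 fold change (horizontal) with its standard error as a bar for each of 8 genes in the 3 comparisons, from 14 libraries (filled circles) and from all 15 (open squares), with dotted lines at a fold change of 1.5. KEAP1 is the gene that turns sign between the 2 fits for AFB1 against CON, from -0.03 to 0.22, and no circle lies beyond a dotted line.

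A gene was called where the unadjusted p was below 0.05 and the fold exceeded 1.5. In AFB1 against CON, 0 of the 8 tested genes were called, where 1.76% of all tested genes were called. The corresponding shares of all genes were 0.935% for AFB1_CUR against AFB1 and 1.63% for AFB1_CUR against CON, and again 0 of 8 were called. DESeq2 on the same counts also called 0 of 8 in each comparison. At an unadjusted p under 0.05 alone, NFE2L2, HMOX1 and SRXN1 were higher in AFB1 than in CON, or 3 of 8, beside 2.10% of all tested genes higher by that rule. This count depended on single libraries: it was 1 of 8 without CON replicate 5, AFB1 replicate 3 or AFB1 replicate 5 (NFE2L2 in each), 1 of 8 without AFB1 replicate 4 (HMOX1), and at most 4 of 8 in any setting tried. None of them had an adjusted p under 0.05 in edgeR, and neither did any of the 13162 genes. In AFB1_CUR against AFB1 and AFB1_CUR against CON, 0 of 8 reached that p, beside 2.30% and 5.49% of all tested genes. In single-library omissions, HMOX1 (-0.52) and SRXN1 (-0.35) reached it in AFB1_CUR against AFB1 without AFB1 replicate 2, SRXN1 (-0.31) without AFB1_CUR replicate 5, and TXNRD1 (0.23) in AFB1_CUR against CON without AFB1_CUR replicate 1. The estimate for AFB1 against CON was higher in 5 of 8 genes, with a median log2 fold change of 0.18 beside 0.02 for all genes tested. For AFB1_CUR against AFB1 it was lower in 6 of 8, with a median of -0.07 beside 0.00, and for AFB1_CUR against CON higher in 6 of 8, with a median of 0.09 beside 0.00. These comparisons share libraries, so their directions are not independent of each other. In the fit of all 15 libraries, 0 of 8 were called in each comparison (4.84%, 3.98% and 0.993% of all genes), and SRXN1 was the 1 gene of 8 with an unadjusted p under 0.05, between AFB1 and CON (unadjusted p of 0.0210, adjusted p of 0.596 from edgeR's quasi-likelihood test), beside 5.73% of all genes higher by that rule, while in the other comparisons 0 of 8 reached it (5.80% and 2.73%).

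Next, the levels of the 8 genes were compared with each other from library to library, over 14 libraries and on log2(FPKM + 1). NFE2L2 was correlated positively with TXNRD1 and SRXN1 and negatively with GCLM before adjustment, and no pair passed Benjamini-Hochberg adjustment over the 28 pairs. For NFE2L2 and TXNRD1, Pearson's r was 0.701 (permutation p of 0.00555, adjusted 0.0777) and Spearman's rho 0.679 (permutation p of 0.00924). Without the 2 libraries farthest from the median of NFE2L2, r was 0.526, and with the group means removed it was 0.557. On TMM counts r was 0.614. By its r with NFE2L2 on FPKM, TXNRD1 ranked number 138 of 13161 other tested genes. For NFE2L2 and SRXN1, r was 0.649 (permutation p of 0.0122, adjusted 0.114) and rho 0.723 (permutation p of 0.00479), with 0.700 without the 2 farthest libraries, 0.486 with group means removed, and a rank of 320. HMOX1 followed NFE2L2 less closely, with an r of 0.465 (permutation p of 0.0942, adjusted 0.330), a rho of 0.578 and an r of 0.219 with group means removed. HMOX1 and SRXN1 had an r of 0.592 (permutation p of 0.0249, adjusted 0.174) and a rho of 0.587 (permutation p of 0.0305), with 0.538 without the 2 libraries farthest from the median of HMOX1 and 0.422 with group means removed.

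GCLM went the other way. Its r with NFE2L2 was -0.747 (permutation p of 0.00216, adjusted 0.0605) and its rho -0.723 (permutation p of 0.00434). The r was -0.837 without the 2 farthest libraries, -0.788 with group means removed and -0.624 on TMM counts. By its r on FPKM, GCLM ranked 13117 of 13161 genes, near the negative end. With group means removed, the pair passed the adjustment over 28 pairs (adjusted permutation p of 0.0269). The 3 libraries highest for NFE2L2, which were AFB1_CUR replicate 2 (80.7 FPKM), AFB1 replicate 4 (80.1) and AFB1_CUR replicate 3 (78.3), had the 3 lowest GCLM values of the 14 libraries, at 7.09, 8.81 and 8.68 FPKM. With AFB1 replicate 1 included, r was -0.01, that library being the lowest in both genes.

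NFE2L2 and KEAP1 had an r of -0.086 (permutation p of 0.774, adjusted 0.875) and a rho of 0.196, and r moved from -0.305 to 0.275 when single libraries were left out. NQO1 and GCLC did not follow NFE2L2 either, with r of 0.136 (adjusted permutation p of 0.814) and -0.028 (adjusted permutation p of 0.958). The 2 subunits of glutamate-cysteine ligase did not follow each other, with an r of 0.165 (permutation p of 0.571, adjusted 0.814), a rho of 0.143 and 0.149 with group means removed. Over the 28 pairs the median r was 0.11, and 16 were positive. On TMM counts 0 pairs passed the adjustment. KEAP1 then had an r of 0.626 with GCLM and 0.543 with GCLC, against 0.240 and 0.310 on FPKM. With all 15 libraries 5 pairs passed the adjustment and the r of NFE2L2 and TXNRD1 was 0.919, the liver-like library being the lowest in both.

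**Figure D4:**
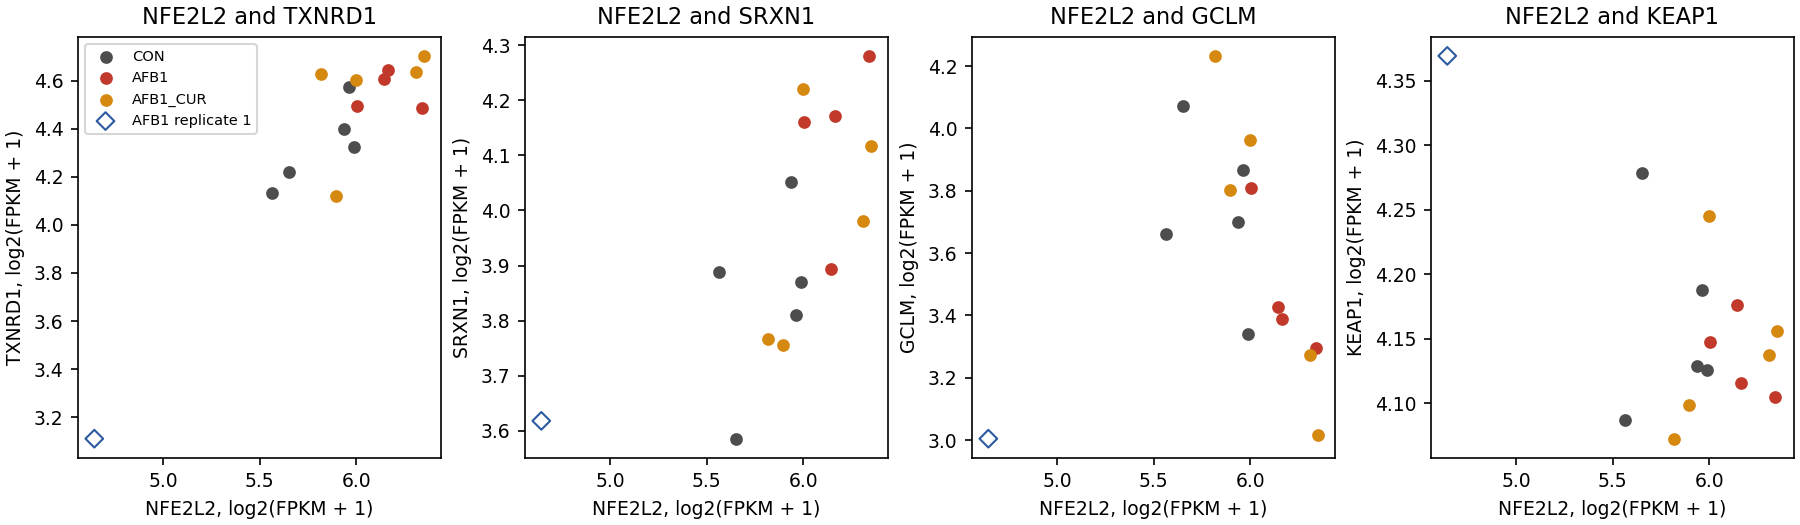
Level of TXNRD1, SRXN1, GCLM and KEAP1 (vertical) against that of NFE2L2 (horizontal), both as log2(FPKM + 1), with 1 point for each of 14 libraries coloured by group and an open diamond for AFB1 replicate 1. TXNRD1 and SRXN1 run upward with NFE2L2 (r of 0.701 and 0.649) and GCLM downward (r of -0.747), whereas KEAP1 shows no slope (r of -0.086).

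The genes most like each of the 8 over the 14 libraries were taken by Pearson's r on log2(FPKM + 1). Unnamed loci and the 8 genes themselves were left out. The 3 closest genes of each were not NRF2 targets of the lists examined below. For NFE2L2 they were SRP19, PRR15 and PRMT6 (r of 0.860, 0.855 and 0.854). For KEAP1 they were JAGN1, ARHGAP24 and MYLIP (0.857, 0.835 and 0.824), over a range of levels that was very narrow. NQO1 was most like ASB8, ARFIP1 and HAPLN1 (r of 0.823, 0.819 and 0.753), and HMOX1 most like CCDC86, PITPNA and FAM136A (0.928, 0.808 and 0.801). TXNRD1 was most like SNRNP40, GNL2 and PDCD2 (r of 0.873, 0.867 and 0.864), and SRXN1 most like HPS6, DNASE1L1 and LASP1 (0.868, 0.849 and 0.841). For GCLC the closest were ERBIN, SLC5A6 and MIA2 (0.882, 0.874 and 0.851), and for GCLM they were ABHD4, PPM1K and C12H1orf116 (0.886, 0.864 and 0.834). These are descriptions over 14 libraries that share tissue makeup and depth, picked as the highest of 13162 genes.

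Levels of the 8 genes were then set beside the marker scores of the cell types of the kidney, each score being the mean log2(FPKM + 1) of its list, in 32 relations that were chosen after the data were seen. With the proximal tubule score, GCLC had an r of 0.687 (permutation p of 0.0073, adjusted 0.168) and a rho of 0.626. GCLM had an r of 0.621 (permutation p of 0.0189, adjusted 0.200) and a rho of 0.618. Without the 2 libraries farthest from the median score, these r were 0.627 and 0.541. NFE2L2 went against that score, with an r of -0.661 (permutation p of 0.0105, adjusted 0.168) and a rho of -0.653, and so did TXNRD1, with an r of -0.568 (permutation p of 0.0367, adjusted 0.200) and a rho of -0.534. None of the 32 relations passed the adjustment. With group means removed, the r with the proximal tubule score were 0.715 for GCLC, 0.583 for GCLM, -0.658 for NFE2L2 and -0.539 for TXNRD1. An r as high as that of GCLC was rare over all tested genes, since it stood above 95.1% of them, while that of NFE2L2 still stood above 15.6% of them. TXNRD1 also had an r of 0.593 with the macrophage score (permutation p of 0.0268, adjusted 0.200) and of 0.557 with the T cell score (permutation p of 0.0375, adjusted 0.200). NFE2L2 had an r of 0.518 and 0.525 with these scores (permutation p of 0.0574 and 0.0531, adjusted 0.204 for both), and GCLM an r of -0.475 and -0.525 (permutation p of 0.0876 and 0.0530, adjusted 0.255 and 0.204). Without the 2 libraries farthest from the median of each score, these r were 0.329 and 0.323 for NFE2L2. They were -0.135 and -0.190 for GCLM, and 0.502 and 0.440 for TXNRD1. The proximal tubule score ran from 7.01 to 8.09 in CON, from 6.55 to 8.06 in AFB1 and from 6.63 to 7.85 in AFB1_CUR, and its summed level from 1759 to 3616, from 1581 to 3608 and from 1450 to 2916 FPKM, with 0 of its 9 genes at 0. The summed level of 9 macrophage genes ran from 58.2 to 139 FPKM in CON, from 61.8 to 254 in AFB1 and from 81.7 to 367 in AFB1_CUR. The part of tissue makeup in the levels of the 8 genes was not tested.

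**Figure D5:**
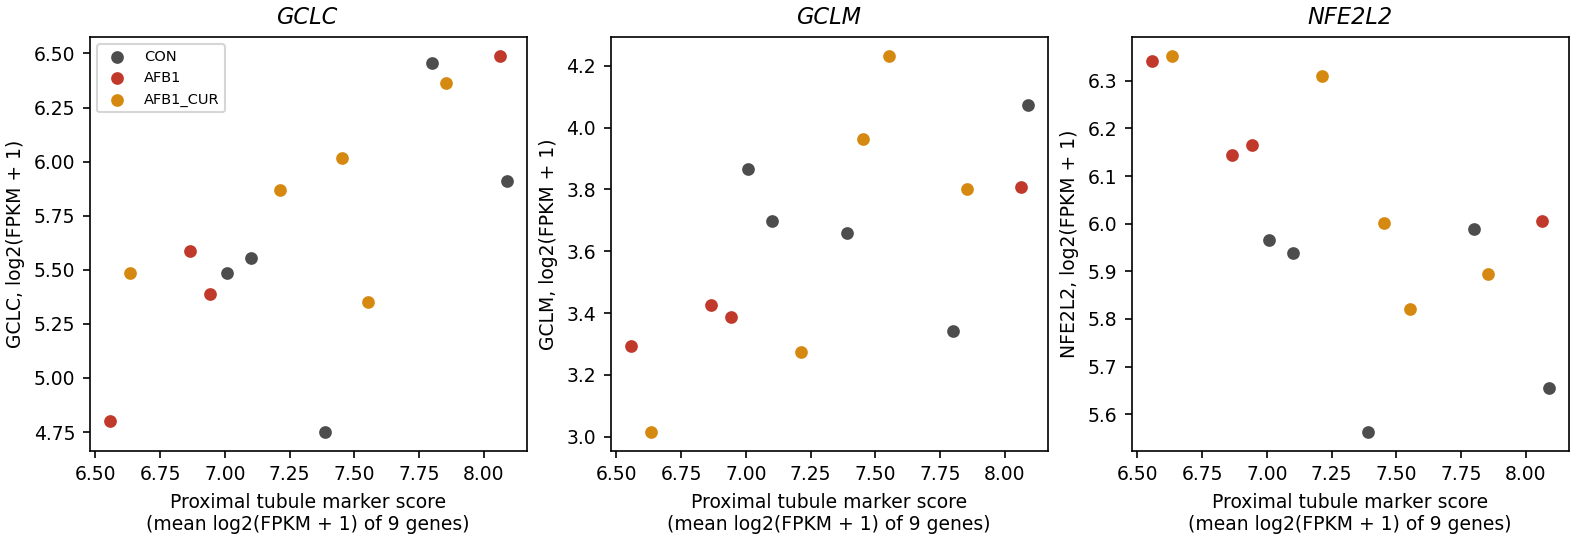
Level of GCLC, GCLM and NFE2L2 as log2(FPKM + 1) (vertical) against the proximal tubule score, the mean log2(FPKM + 1) of 9 marker genes (horizontal), with 1 point for each of 14 libraries coloured by group. GCLC and GCLM run upward with the score (r of 0.687 and 0.621) and NFE2L2 downward (r of -0.661).

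Around these genes, 59 further genes of the pathway were listed, of which 53 were measured and 50 tested. In AFB1 against CON, 1 of 50 was called higher and 0 lower, beside 0.653% and 1.11% of all tested genes. In AFB1_CUR against AFB1, 0 were called in either direction (0.410% and 0.524% of all genes), although GSR was at an unadjusted p of 0.0493. In AFB1_CUR against CON, 0 were called higher and 1 lower (1.05% and 0.577% of all genes). Estimates were higher in 32 of 50 genes for AFB1 against CON, in 13 of 50 for AFB1_CUR against AFB1 and in 19 of 50 for AFB1_CUR against CON, where 53.4%, 50.1% and 49.5% of all tested genes were higher.

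Of 17 regulators and partners of NRF2, 15 were tested and 0 were called in any of the 3 comparisons. MAFK, a small MAF partner of NRF2, was at 6.74 ± 0.58 FPKM in CON (SD, n = 5), 5.34 ± 1.19 in AFB1 (SD, n = 4) and 5.87 ± 0.70 in AFB1_CUR (SD, n = 5). Its log2 fold change was -0.36 for AFB1 against CON (standard error 0.12, adjusted p = 0.957 from edgeR), with an unadjusted p of 0.0116, and -0.27 for AFB1_CUR against CON (standard error 0.12). Over all 15 libraries the first was -0.09 (standard error 0.20). SQSTM1, the autophagy adaptor p62 that competes for KEAP1, differed by -0.17 between AFB1_CUR and AFB1 (standard error 0.10), and by -0.48 with all 15 libraries (standard error 0.21). The kinase GSK3B, which marks NRF2 for degradation by another route, differed by 0.16 between AFB1_CUR and CON (standard error 0.12), the chromatin remodeller CHD6 by -0.12 between AFB1 and CON (standard error 0.09) and the phosphatase PGAM5 by -0.19 between AFB1_CUR and AFB1 (standard error 0.13). These estimates varied with single libraries, that of GSK3B from 0.08 without CON replicate 1 to 0.26 without CON replicate 5, that of CHD6 from -0.17 without AFB1 replicate 3 to -0.08 without AFB1 replicate 5, and that of PGAM5 from -0.28 without AFB1 replicate 2 to -0.07 without AFB1 replicate 5. The median of the 15 log2 fold changes was 0.06, -0.02 and -0.01 in the comparisons of AFB1 with CON, AFB1_CUR with AFB1 and AFB1_CUR with CON.

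Of 13 other targets for glutathione and thioredoxin, 9 were tested and 0 were called. GSR, glutathione reductase, was at 8.09 ± 1.03 FPKM in CON (SD, n = 5), 10.9 ± 2.17 in AFB1 (SD, n = 4) and 8.82 ± 1.21 in AFB1_CUR (SD, n = 5), with 4.83 in AFB1 replicate 1. It was the gene of this list with the lowest p in both comparisons with AFB1: the log2 fold change was 0.43 for AFB1 against CON (standard error 0.17) and -0.37 for AFB1_CUR against AFB1 (standard error 0.17), with unadjusted p of 0.0264 and 0.0493 and adjusted p of 0.957 and 1.0 from edgeR. Both rested most on AFB1 replicate 5, without which they were 0.24 and -0.18. MGST1, a microsomal glutathione transferase, was at 78.1 ± 27.1 FPKM in AFB1 (SD, n = 4) and 119 ± 40.2 in AFB1_CUR (SD, n = 5), a log2 fold change of 0.54 (standard error 0.31) that was -0.36 with all 15 libraries, where AFB1 replicate 1 had 258 FPKM. Among the 14 libraries it ran from 0.32 without AFB1 replicate 2 to 0.71 without AFB1 replicate 4. TXN, thioredoxin, differed by -0.30 between AFB1_CUR and CON (standard error 0.15), and SLC3A2, the heavy chain that pairs with SLC7A11, by -0.41 (standard error 0.28), or by -0.26 without CON replicate 4. The medians of the list were -0.02, -0.18 and -0.07.

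Of 19 targets for NADPH supply and detoxification, 16 were tested. UGDH, which makes the UDP-glucuronic acid used in glucuronidation, was called higher in AFB1 than in CON. Its level was 1.59, 1.52, 1.68, 1.91 and 1.82 FPKM in the CON libraries, 2.54, 2.77, 1.57 and 3.40 in the AFB1 libraries and 2.71, 3.75, 2.198, 2.19 and 1.99 in the AFB1_CUR libraries. Each AFB1_CUR library was above each CON library, and 3 of 4 AFB1 libraries were. The log2 fold change in AFB1 was 0.60 (standard error 0.21), with an unadjusted p of 0.0133 and an adjusted p of 0.957 from edgeR, and in AFB1_CUR against CON it was 0.50 (standard error 0.20, adjusted p = 0.823 from edgeR), under the fold threshold. Separations of this kind, with AFB1_CUR higher than CON, were found in 0.532% of all tested genes. UGDH was not called in AFB1 against CON with either limma scale, with sample quality weights, or without CON replicate 1 (0.58), CON replicate 2 (0.54), AFB1 replicate 3 (0.58) or AFB1 replicate 5 (0.37). OSGIN1, an oxidative stress induced growth inhibitor, was called lower in AFB1_CUR than in CON. Its level was 68.1, 206, 137, 61.9 and 61.0 FPKM in CON, 46.6, 107, 63.2 and 34.1 in AFB1 and 34.3, 35.2, 41.2, 108 and 39.5 in AFB1_CUR. AFB1_CUR replicate 4 lay within the CON range and the other 4 below it. Against CON, the AFB1 group differed by -0.76 (standard error 0.47, unadjusted p of 0.125), which became -1.12 with a call without AFB1 replicate 3 and -0.42 without CON replicate 2. For AFB1_CUR against CON the log2 fold change was -1.07 (standard error 0.44), with an unadjusted p of 0.0281 and an adjusted p of 0.823 from edgeR, and the call was lost with all 15 libraries (-1.07, unadjusted p of 0.0860) and without CON replicate 2 (-0.74), CON replicate 3 (-0.96) or AFB1_CUR replicate 1, 2, 3 or 5 (-0.96, -0.93, -0.99 and -0.98). ABCC1, an efflux pump for glutathione conjugates, differed by -0.32 between AFB1_CUR and AFB1 (standard error 0.22), by -0.47 without AFB1 replicate 3 and -0.15 without AFB1 replicate 2, and by -0.03 with all 15 libraries. The medians of the list were 0.05, -0.13 and -0.11.

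All 10 genes of the heme and iron list were tested and 0 were called. FTL, the ferritin light chain, was at 2395 ± 551 FPKM in CON (SD, n = 5), 3102 ± 1185 in AFB1 (SD, n = 4) and 2052 ± 644 in AFB1_CUR (SD, n = 5). Its log2 fold change of -0.68 between AFB1_CUR and AFB1 (standard error 0.32) had an unadjusted p of 0.0549 and an adjusted p of 1.0 from edgeR, and passed both thresholds in DESeq2 (-0.68, unadjusted p of 0.0308), with all 15 libraries or weights, and without AFB1 replicate 2 (-0.92), AFB1_CUR replicate 3 (-0.76) or AFB1_CUR replicate 5 (-0.82), and was smallest without AFB1 replicate 4 (-0.45). Ferritin genes have near-identical copies, and how far reads were shared between them was not tested. HMOX2, the constitutive heme oxygenase, differed by -0.21 between AFB1_CUR and CON (standard error 0.19), and by -0.06 without AFB1_CUR replicate 2. BLVRB, a biliverdin reductase, differed by -0.44 between AFB1_CUR and AFB1 (standard error 0.22), or by -0.63 with a call when AFB1 replicate 2 was left out and -0.21 when AFB1 replicate 5 was. The medians of the list were 0.09, -0.19 and -0.14, beside 0.02, 0.00 and 0.00 for all genes tested.

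With all 15 libraries, 3 of the 50 genes were called higher in AFB1 than in CON, which were DPP3, EPHX1 and UGDH, and 4 were called lower in AFB1_CUR than in AFB1, which were EPHX1, UGDH, BLVRB and FTL. The shares of all genes were 3.84% and 3.39%. DPP3 and EPHX1 are named here after their values were seen. In AFB1 replicate 1, EPHX1 had 668 FPKM against 46.3 to 130 in the other 14 libraries, DPP3 had 18.0 against 3.84 to 7.74, UGDH had 14.5 against 1.52 to 3.75 and BLVRB had 78.0 against 19.5 to 40.8, while FTL, at 1941, was within the range of the other libraries.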

How the data were processed

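The mRNA of 15 sheep, labelled as kidney in all, was sequenced as paired reads from stranded libraries. Per the labels, the authors trimmed reads with cutadapt 1.9, aligned them with HISAT2 2.2.1 and used StringTie 2.1.6, and the deposited table gives, for 25592 genes and every library, the raw count of reads and the FPKM. The build is not given in the sources used here, but start and end equal those of RefSeq ARS-UI_Ramb_v3.0 for 99.6% of 24947 genes matched by symbol. Chromosomes were taken from that match, and positions and strands from the deposited table. Groups were read from the sample titles, since the treatment field counts the number in AFB1 up from sample to sample within both AFB1 groups. The members and gene lists were chosen with earlier results of these data known.

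The 13162 genes that reached 1 FPKM in 5 or more of 14 libraries were tested in 1 model with edgeR 4.0.16 (TMM, quasi-likelihood test, tested on simulated data). Following the screening conditions of the study, a call needed a fold over 1.5 with an unadjusted p below 0.05. Adjusted p values are Benjamini-Hochberg values over all genes tested. AFB1 replicate 1 was kept out because it is liver-like. Correlations used log2(FPKM + 1) and two-sided permutation tests with 100000 resamples (numpy, with ranks from scipy). Named genes were all 9 members, the called genes of each pathway list with the 2 of lowest p in each comparison, and the 3 genes most like each member; 1 gene that this rule names is not reported here. Alternatives were the 15 libraries, DESeq2 1.42.0, limma 3.58.1, RLE size factors, other filters and weights, a replicate block and leaving out each library. No 2 libraries were identical, and Pearson's r between the 14 ran from 0.880 to 0.978. No batch or date is given in the labels.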

Additional observations from a re-analysis of the deposited data

Results flagged for a closer look

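Of 36 groups of values tested with Dixon's criterion for a sample far from the rest, 4 met it, where chance gives about 1 in 20. Leaving aside the groups with AFB1 replicate 1 put back, it was 2 of 27. In the AFB1 group with replicate 1 included, that library was far above the others for KEAP1, at 19.66 FPKM against 17.08 in the next, and far below them for TXNRD1, at 7.633 FPKM against 21.41 in the next. It is the library with liver-like markers. Outside the comparisons, its KEAP1 level of 19.66 FPKM was also above the highest CON value of 18.4. In the AFB1_CUR group, replicate 1 was far below the others for TXNRD1, at 16.39 FPKM against 23.33 in the next. Replicate 2 of that group was far above the others for SLC7A11, at 0.09218 FPKM against 0.005839 in the next, and it also had the highest macrophage and T cell scores of its group (4.38 and 4.26). The part of those cells in its SLC7A11 level was not tested.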

How the results depend on the processing

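The number of the 8 genes called in AFB1 against CON was 0, and 1 (HMOX1) with sample quality weights, and it ran from 0 to 1 when single libraries were left out. It was 1 without CON replicate 1, CON replicate 4, AFB1 replicate 2 or AFB1 replicate 4. Pairs past the adjustment numbered 0, but 1 with group means removed, 5 with all 15 libraries and 0 to 2 without single libraries (1 without CON replicate 1, 2 without AFB1_CUR replicate 4).

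Some signs turned. With all 15 libraries, KEAP1 was 0.22 in AFB1 against CON, TXNRD1 0.060 in AFB1_CUR against AFB1, MGST1 0.51 in AFB1 against CON and -0.36 in AFB1_CUR against AFB1, and OSGIN1 0.043 in AFB1 against CON. For AFB1_CUR against AFB1, limma with pseudocounts of 1 and 0.1 gave 0.0059 and 0.0061 for KEAP1 and 0.048 and 0.053 for NQO1, and weights gave 0.030 for NQO1. GCLM in AFB1_CUR against CON was 0.011 with weights. The NFE2L2 and KEAP1 correlation was 0.196 by rho and 0.046 with group means removed, that of NFE2L2 and NQO1 -0.121 with group means removed, and that of NFE2L2 and GCLC 0.011 by rho, 0.495 with all 15 libraries and 0.059 on TMM counts. The cause was not tested.

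Leaving out single libraries moved KEAP1 in AFB1 against CON from -0.081 to 0.0040 and GCLC from -0.52 to 0.26. In AFB1_CUR against AFB1 it moved NQO1 from -0.10 to 0.059, TXNRD1 from -0.12 to 0.00067, GCLC from -0.13 to 0.58 and GCLM from -0.0035 to 0.39. In AFB1_CUR against CON it moved SRXN1 from -0.0064 to 0.12, GCLC from -0.13 to 0.34 and GCLM from -0.27 to 0.10. The correlations of NFE2L2 ran from -0.305 to 0.275 with KEAP1, -0.056 to 0.250 with NQO1 and -0.399 to 0.193 with GCLC.

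Genes called among all tested in AFB1 against CON, AFB1_CUR against AFB1 and AFB1_CUR against CON numbered 232, 123 and 214. They were 639, 525 and 131 with all 15 libraries, 105, 81 and 80 by limma with a pseudocount of 1 and 867, 707 and 928 with no filter, and weights gave 336 in the second. Single libraries moved them from 204 to 454 (454 without AFB1 replicate 5), from 119 to 261 (261, 221 and 193 without AFB1 replicate 2, AFB1 replicate 5 and AFB1_CUR replicate 2) and from 115 to 305 (115 without AFB1_CUR replicate 2). Adjusted p under 0.05 was reached by 0 genes in edgeR (664, 303 and 723 unadjusted) and by 22, 3 and 1 in DESeq2.

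Same-numbered libraries did not all deviate together: 7 of 13 pairs correlated above 0.1, among them all 3 of replicate 2 (0.396, 0.599 and 0.438), the lowest was -0.309, and 4 of 14 libraries correlated best with their own number. With the replicate number as a block, 0 of 8 genes were called in each comparison, HMOX1 was 0.50 and NFE2L2 0.30 in AFB1 against CON, and 228, 150 and 282 genes were called in all. NFE2L2 was then the 1 gene of 8 at an unadjusted p under 0.05 in AFB1 against CON (0.0351, with 0.0655 for HMOX1 and 0.0720 for SRXN1). In AFB1_CUR against AFB1 the block added calls of MGST1 (0.67, unadjusted p of 0.00426) and FTL (-0.69), and in AFB1 against CON the call of UGDH was lost (0.58). Groups of 4 or 5 libraries, 1 liver-like library and mRNA without protein limit what these values show.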
